A study of Mus musculus with 16 samples.

Results

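The genes described here are 9 components and targets of IL-17 receptor signalling, out of 25719 genes in the table of the series. They were chosen by gene name: the receptor subunits Il17ra, Il17rb, Il17rc and Il17re, the adaptor Traf3ip2, the regulators Nfkbiz and Zc3h12a, and the non-chemokine target genes Lcn2 and Steap4. Of these, 8 reached a mean of 10 normalized counts and were tested, and Il17re did not. RNA of whole liver was sequenced from 16 mice, 1 library per mouse. The study asked how NKG2D, an activating receptor of lymphocytes encoded by Klrk1, bears on liver inflammation during fat overload. WT mice carried the strain label C57BL6J, and the knockout mice lacked Klrk1 in every cell (Klrk1-/-), so that loss in lymphocytes was not separated from loss elsewhere. Mice received a normal chow diet (NCD) or a steatosis-steatohepatitis diet (SSD) rich in fat, fructose and cholesterol for 3 weeks. The study's methods describe male mice 8 to 12 weeks old. There were 4 WT mice on NCD, labelled 1, 2, 3 and 5, 5 WT mice on SSD, 4 Klrk1-/- mice on NCD and 3 Klrk1-/- mice on SSD. Whether WT and Klrk1-/- mice were littermates is not given in the sources used here.

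IL-17A and IL-17F act through a receptor made of IL-17RA and IL-17RC, whereas IL-17RB pairs with IL-17RA to bind IL-25 and IL-17RE pairs with it to bind IL-17C. All of them recruit the adaptor Act1, the product of Traf3ip2, which engages TRAF proteins and leads to NF-κB and C/EBP activity and to stabilization of target mRNAs. IκBζ, encoded by Nfkbiz, is a nuclear coactivator of late targets, and Regnase-1, encoded by Zc3h12a, is a ribonuclease that degrades inflammatory mRNAs. Lcn2 encodes lipocalin 2, which binds bacterial siderophores and is made by hepatocytes and by neutrophils. Steap4 encodes a metalloreductase of iron and copper. Lcn2 and Steap4 respond to IL-17 in many cell types, and both also respond to other inflammatory signals.

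The promoters of the target genes are shown first, because Lcn2 and Steap4 carry the largest differences between genotypes. RefSeq promoter sequences (table of build GRCm38.p6) were matched by symbol for 6 of the 9 genes, and each was then located by exact match in GRCm39. The 250 bases before the start were searched on both strands for 3 motifs. These were an NF-κB motif (GGGA, any 4 bases, CC), a C/EBP motif (TTGCNNAA) and a STAT motif (TTCNNNGAA). Of 32851 promoters, 17.6% held the NF-κB motif, 9.56% the C/EBP motif and 7.02% the STAT motif. Each stretch below has 30 bases on the strand of the gene, with the motif in capitals, and the capitals of the second NF-κB match are the motif read on the opposite strand.

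Lcn2, C/EBP motif, chr2:32277949-32277978 (minus strand): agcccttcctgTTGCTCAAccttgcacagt

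Steap4, NF-κB motif, chr5:8010222-8010251 (plus strand): GGGATGCCCCaccccaaaggttccggaaaa

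Steap4, STAT motif, chr5:8010345-8010374 (plus strand): aggttgaactcTTCCCGGAAactttgcttc

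Steap4, C/EBP motif, chr5:8010374-8010403 (plus strand): cacagctcctcTTGCGAAAtcaagcgggcc

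Steap4, second NF-κB match, chr5:8010389-8010418 (plus strand): gaaatcaagcGGGCCCTCCCtcctccgctc

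Steap4 held all 3 motifs, with the C/EBP match at bases 87 to 80 before the start and the nearer NF-κB match at bases 73 to 64, and no match overlapped another. Lcn2 held a C/EBP match alone, at bases 216 to 209 before the RefSeq start. That start lies inside the span of Lcn2 in the table, so the stretch shown falls within the counted gene's span. Il17rc held 1 NF-κB match, and the windows of Il17rb, Il17re and Zc3h12a held none of the 3 motifs. These matches describe the letters of the windows, not occupied sites.

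The deleted gene, Klrk1, followed the labels. It stood at 22.9, 20.1, 28.7 and 21.0 normalized counts in the WT mice on NCD and at 57.8, 33.0, 34.3, 71.1 and 34.3 in the WT mice on SSD. The Klrk1-/- mice had 2.30, 4.98, 8.71 and 1.23 on NCD and 0.966, 1.61 and 4.29 on SSD. Every Klrk1-/- mouse lay below every WT mouse.

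Reads on genes ran from 19892025 to 28936707 per mouse, and 3 reads, taken as the floor, were worth 1.99 to 3.91 normalized counts. The deposited values did not sum to the same total in each mouse. The totals were 25001171 to 27985228 in WT mice on NCD and 19222033 to 21373610 in WT mice on SSD, against 25522136 to 27892992 and 21861121 to 22666465 in Klrk1-/- mice. Scaling every mouse to 1 total shifted the median log2 fold change over every gene tested by 0.34 for SSD against NCD in WT mice, by 0.25 in Klrk1-/- mice and by -0.11 for Klrk1-/- against WT on SSD. WT SSD mouse 1 stood apart, with a summed level of 8 monocyte and macrophage markers of 8602, against 2260 to 3326 in the other WT mice on SSD. It was also the highest of its group in 7 of the 9 genes. Values of Lcn2 and Steap4 that it moves are given with and without it. In whole liver, fewer cells of a type and less RNA per cell cannot be told apart.

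**Figure D1:**
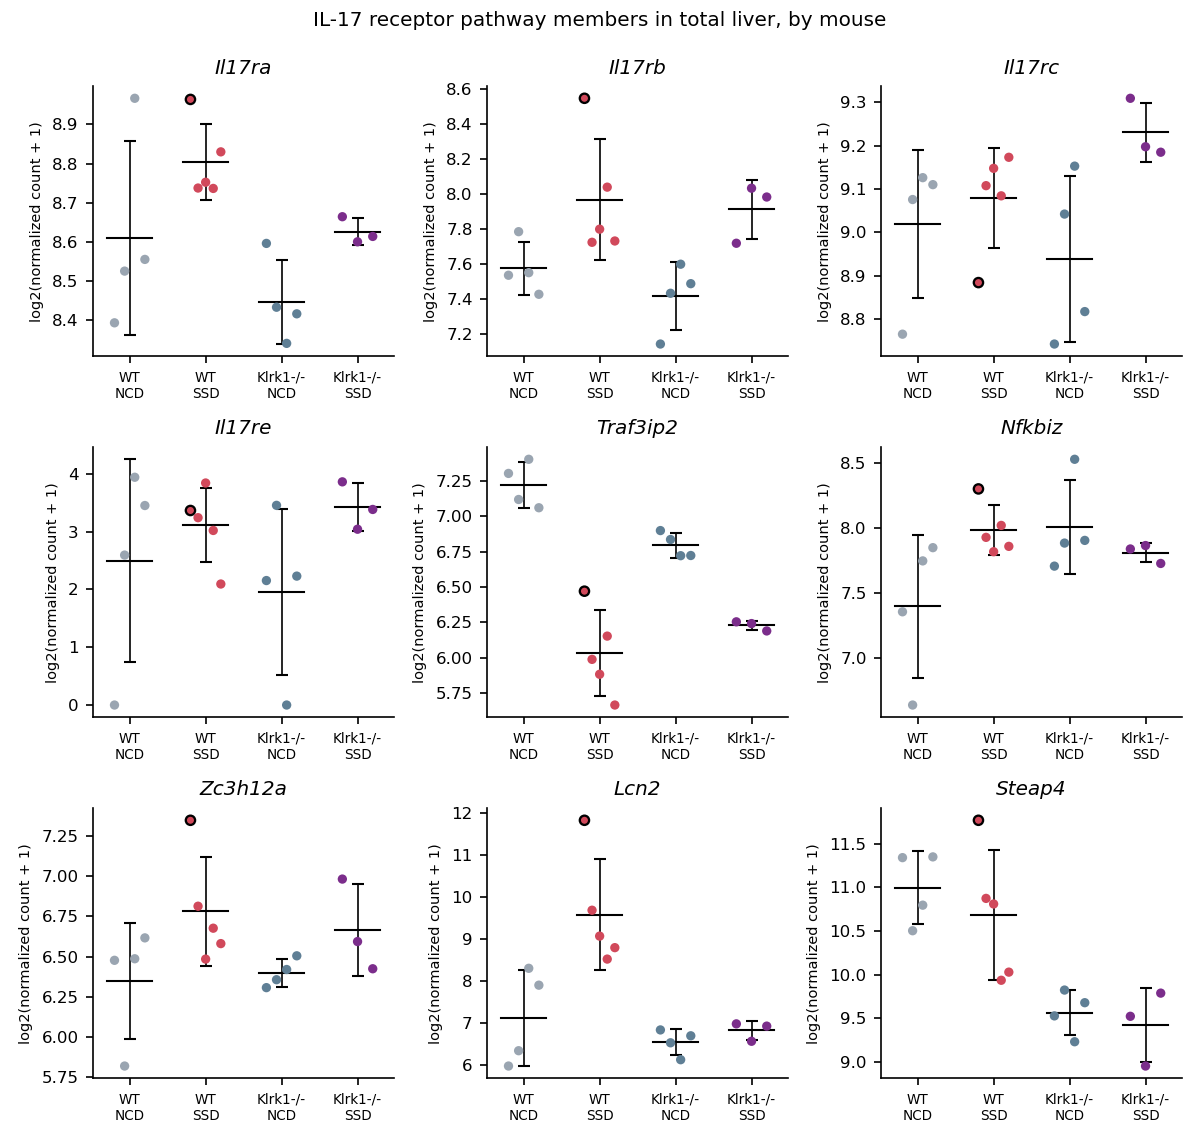
Level of each of the 9 genes in every mouse, as log2(normalized count + 1), in WT and Klrk1-/- mice on NCD and SSD; points are mice, the line is the group mean, bars are the SD, the black ring marks WT SSD mouse 1, and each panel has its own vertical axis. Lcn2 was highest in WT mice on SSD, every Klrk1-/- mouse is below every WT mouse in Steap4, and Traf3ip2 was lowest on SSD.

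Of the receptor genes tested, only Il17rb passed a test in the reported fit, for diet in Klrk1-/- mice. When each mouse was scaled to 1 total, more passed for diet. In WT mice these were Il17ra (0.54, adjusted p = 0.00618), Il17rb (0.74, 0.00741) and Il17rc (0.41, 0.009). In Klrk1-/- mice Il17ra (0.44, adjusted p = 0.00807) and Il17rc (0.55, 0.00184) were gained. Il17ra also passed for diet in WT mice without WT NCD mouse 3 (0.31, adjusted p = 0.0402). Il17ra, the shared subunit (GRCm39 chr6:120440208-120464520), had 335, 368, 499 and 375 normalized counts in WT mice on NCD and 498, 426, 430, 426 and 454 in WT mice on SSD. It had 386, 345, 323 and 341 in Klrk1-/- mice on NCD and 405, 387 and 391 on SSD. On SSD the lowest WT mouse was above the highest Klrk1-/- mouse, whereas on NCD the genotypes overlapped. The log2 fold change of Klrk1-/- against WT on SSD was -0.18 (95% interval -0.37 to 0.01, adjusted p = 0.247), and that of diet was 0.19 in WT mice (-0.06 to 0.45, adjusted p = 0.219) and 0.18 in Klrk1-/- mice (-0.03 to 0.39, adjusted p = 0.174).

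Il17rc, the subunit that completes the receptor of IL-17A and IL-17F (chr6:113448388-113460101), had 434, 539, 558 and 552 normalized counts in WT mice on NCD and 472, 551, 566, 542 and 576 on SSD. Klrk1-/- mice had 427, 526, 568 and 450 on NCD and 634, 586 and 581 on SSD. The 3 Klrk1-/- mice on SSD were the highest of all 16, yet neither genotype on SSD (log2 fold change 0.15, adjusted p = 0.344) nor diet in Klrk1-/- mice (0.29, adjusted p = 0.066) passed the test. Without Klrk1-/- NCD mouse 3 the diet difference in Klrk1-/- mice had an adjusted p of 0.0211.

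Il17rb, the subunit that binds IL-25 (chr14:29718092-29730853), had 185, 220, 186 and 171 normalized counts in WT mice on NCD and 373, 210, 222, 262 and 212 on SSD. Klrk1-/- mice had 140, 172, 193 and 178 on NCD and 210, 261 and 252 on SSD. In Klrk1-/- mice Il17rb rose on SSD by 1.41-fold (log2 fold change 0.50, SE 0.13, adjusted p = 0.017), with no overlap, and the call was lost without Klrk1-/- SSD mouse 2 (adjusted p = 0.0591) or 3 (0.0684). In WT mice the difference was 0.39 (95% interval 0.03 to 0.76, adjusted p = 0.0856), and the groups overlapped. It passed with all 4 groups in 1 model (adjusted p = 0.0482). The difference between the diet effects was 0.10 (95% interval -0.39 to 0.59, adjusted p = 0.843). Exons of Il17rb share 2472 of their 6370 bases with Actr8 on the opposite strand, and since strand use in counting is not given in the sources used here, reads of both genes cannot be told apart there.

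Il17re, the subunit of the IL-17C receptor (chr6:113435445-113447719), was near the floor. It had 0, 5.03, 14.3 and 9.93 normalized counts in WT mice on NCD and 9.30, 8.45, 13.3, 7.11 and 3.27 on SSD. It had 3.45, 9.95, 0 and 3.69 in Klrk1-/- mice on NCD and 13.5, 7.23 and 9.43 on SSD. All groups overlapped, and the reads behind these values numbered 25, 50, 14 and 34 per group. No read of Il17a, Il17b or Il25 was counted in any mouse, which allows up to 1.99 to 3.91 normalized counts per mouse. Il17f had 1 read in 1 mouse, Il17c had at most 2 reads and Il17d at most 6, so differences in the ligands were not detectable at this depth.

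Traf3ip2, the adaptor gene (chr10:39488930-39531303), fell on SSD in both genotypes. It had 157, 138, 168 and 132 normalized counts in WT mice on NCD and 87.7, 62.5, 58.1, 70.2 and 49.8 on SSD. In Klrk1-/- mice it had 118, 113, 105 and 105 on NCD and 75.3, 74.7 and 72.0 on SSD. All mice on SSD lay below all mice on NCD. The summed level of 7 hepatocyte markers was also lower on SSD without overlap, at 1795141 to 2186282 against 2643788 to 2989478 in WT mice and at 2251991 to 2426379 against 2491413 to 3241570 in Klrk1-/- mice, and its part in the fall was not tested. The fall of Traf3ip2 was 2.28-fold in WT mice (log2 fold change -1.19, SE 0.17, adjusted p = 0.00032; exact permutation p = 0.0159) and 1.48-fold in Klrk1-/- mice (-0.57, SE 0.13, adjusted p = 0.00739).

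On NCD, Traf3ip2 was also lower in Klrk1-/- mice, by 1.34-fold (log2 fold change -0.43, SE 0.13, adjusted p = 0.0439), with no overlap (exact permutation p = 0.0286). This call was lost when any of 7 of the 8 mice was left out, and over all alternatives its adjusted p ran from 0.033 to 0.114. On SSD the genotypes overlapped (log2 fold change 0.20, 95% interval -0.22 to 0.61, adjusted p = 0.564). The difference between the 2 diet effects was 0.62 (0.17 to 1.08) and did not pass the test (adjusted p = 0.164). Exons of Traf3ip2 share 2780 of their 10196 bases with E130307A14Rik on the opposite strand, a gene that the table does not hold. When each mouse was scaled to 1 total, the fall in Klrk1-/- mice was -0.31 (adjusted p = 0.102), and that in WT mice still passed.

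Nfkbiz, which encodes IκBζ (chr16:55631738-55659262), had 163, 98.7, 214 and 230 normalized counts in WT mice on NCD and 314, 243, 225, 259 and 231 on SSD. Klrk1-/- mice had 208, 235, 368 and 239 on NCD and 228, 232 and 211 on SSD. In WT mice 4 of the 5 mice on SSD lay above all mice on NCD. The log2 fold change was 0.59 (SE 0.22, 95% interval 0.12 to 1.06), at an adjusted p of 0.0518, and 5 of 20 alternatives called it, among them DESeq2 (0.0434), with adjusted p from 0.00462 to 0.115 over all 20. In Klrk1-/- mice it was -0.20 (adjusted p = 0.413), and the difference between the diet effects was -0.78 (adjusted p = 0.212). On NCD 3 of the 4 Klrk1-/- mice lay above all WT mice, at a log2 fold change of 0.61 (95% interval 0.08 to 1.13, adjusted p = 0.111).

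Zc3h12a, which encodes Regnase-1 (chr4:125012216-125021633), had 88.0, 55.4, 88.6 and 97.1 normalized counts in WT mice on NCD and 162, 112, 88.5, 101 and 94.7 on SSD. Klrk1-/- mice had 78.1, 80.9, 84.6 and 89.8 on NCD and 126, 95.6 and 84.9 on SSD. Every pair of groups overlapped, and no comparison passed the test, with adjusted p from 0.129 to 0.882. When each mouse was scaled to 1 total, Zc3h12a passed for diet in WT mice (0.77, adjusted p = 0.0121) and in Klrk1-/- mice (0.53, adjusted p = 0.0189).

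Lcn2 (chr2:32274645-32278264) showed the largest log2 fold change of the 8 genes tested. It had 61.5, 79.5, 314 and 237 normalized counts in WT mice on NCD and 3650, 823, 536, 366 and 443 on SSD. Klrk1-/- mice had 113, 90.8, 68.4 and 102 on NCD and 125, 93.2 and 120 on SSD. Every WT mouse on SSD was above every other mouse, while the Klrk1-/- mice on SSD were within the range of the WT mice on NCD. Lcn2 is among the genes that the study plotted for these mice on SSD, so its direction is not independent evidence.

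Lcn2 rose in WT mice on SSD by 5.49-fold (log2 fold change 2.46, SE 0.64, adjusted p = 0.0122; exact permutation p = 0.0159), and without WT SSD mouse 1 the log2 fold change was 1.89 (adjusted p = 0.0063). The diet call was lost with robust variances (adjusted p = 0.0514) and kept under the other alternatives. On SSD it was 6.79-fold lower in Klrk1-/- than in WT mice (log2 fold change -2.76, SE 0.61, adjusted p = 0.043; exact permutation p = 0.0357, the smallest the design allows). The WT mean on SSD was 1164 ± 1401 normalized counts (SD, n = 5), and the Klrk1-/- mean was 113 ± 16.98 (SD, n = 3). Without WT SSD mouse 1 the WT mean was 542 ± 200 (SD, n = 4), the genotype difference was -2.20 and its adjusted p was 0.000638.

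That genotype call was lost when WT SSD mouse 2 (adjusted p = 0.0852), WT SSD mouse 3 (0.0718) or Klrk1-/- SSD mouse 1, 2 or 3 (0.153, 0.157 and 0.125) was left out. It was also lost under edgeR (0.0632), robust variances (0.1), quantile normalization (0.0612) and a pseudocount of 10 (0.0526). The diet difference in Klrk1-/- mice was 0.28 (95% interval -0.13 to 0.68, adjusted p = 0.281). It was 0.53 and passed when each mouse was scaled to 1 total (adjusted p = 0.045). The difference between the diet effects was -2.18 (-3.92 to -0.44), with an adjusted p of 0.196. On NCD the genotypes overlapped (log2 fold change -0.59, adjusted p = 0.364).

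The monocyte and macrophage markers moved with Lcn2. Of the 8 markers, 6 rose on SSD in WT mice, and their summed level was 1244 to 1807 on NCD and 2260 to 8602 on SSD, against 1444 to 1601 in Klrk1-/- mice on SSD. Between genotypes on SSD, 1 of the 8 was lower in Klrk1-/- mice (median log2 fold change -1.17), and 5 were without WT SSD mouse 1 (median -0.84). The count of these markers with any other mouse left out is not given here. Kupffer cell markers summed to 5096 to 11058 in WT and to 3789 to 4900 in Klrk1-/- mice on SSD. The part of these cells in the Lcn2 result was not tested. Of 12 neutrophil markers, 3 reached the minimum mean on SSD, Ly6g had no read in any mouse, and the sums overlapped, at 109 to 301 in WT and 98.8 to 157 in Klrk1-/- mice on SSD.

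Steap4 (chr5:8010457-8032213) stood lower in Klrk1-/- mice on both diets, and the difference passed the test on NCD. It had 2595, 1451, 1778 and 2611 normalized counts in WT mice on NCD and 3493, 1876, 1795, 978 and 1043 on SSD. Klrk1-/- mice had 736, 905, 599 and 818 on NCD and 734, 494 and 883 on SSD. Every Klrk1-/- mouse lay below every WT mouse of either diet. On NCD the difference was 2.7-fold (log2 fold change -1.43, SE 0.18, adjusted p = 0.000737; exact permutation p = 0.0286), and it passed under every alternative tried, with adjusted p from 1.57e-12 to 0.00707.

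On SSD Steap4 differed between genotypes by -1.26 (SE 0.37, 95% interval -2.09 to -0.44), which did not pass the test (adjusted p = 0.0914), although the groups did not overlap (exact permutation p = 0.0357). Without WT SSD mouse 1 the difference was -0.99 with an adjusted p of 0.0487. Over all alternatives that adjusted p ran from 0.0176 to 0.292. For diet, the log2 fold change of Steap4 was -0.31 in WT mice (adjusted p = 0.48) and -0.14 in Klrk1-/- mice (adjusted p = 0.59), both with overlapping groups and both above 0 with equal totals (0.03 and 0.11). Without WT SSD mouse 1 the value in WT mice was -0.59 (adjusted p = 0.0739). The diet effects differed by 0.17 (95% interval -0.77 to 1.11, adjusted p = 0.865). The monocyte and macrophage markers, which separated the genotypes on SSD, summed to 1244 to 1807 in WT and 1201 to 1417 in Klrk1-/- mice on NCD. Of 5 tested cholangiocyte markers, 1 was lower in Klrk1-/- mice on NCD (list median -0.83), and the sums over the 6 listed markers overlapped, at 238 to 385 in WT and 213 to 268 in Klrk1-/- mice. Their part in the Steap4 difference was not tested.

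**Figure D2:**
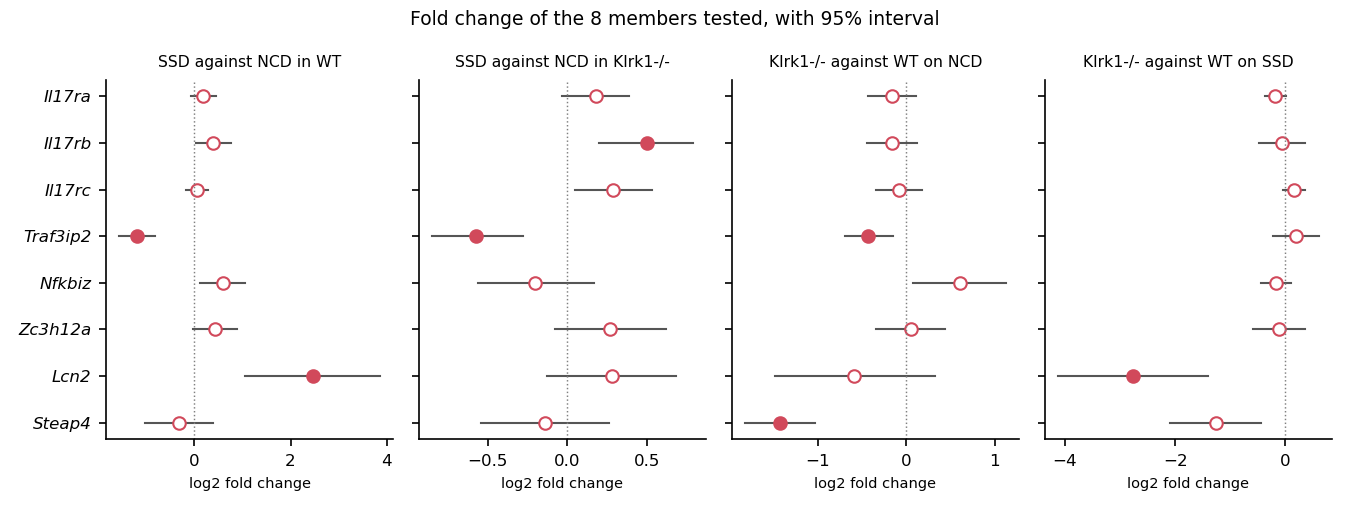
Log2 fold change of the 8 tested genes in each comparison, with 95% intervals; filled points have an adjusted p under 0.05, and the panels differ in the range of the horizontal axis. Lcn2 and Steap4 lie farthest from 0 in the comparisons of genotypes, at -2.76 for Lcn2 on SSD and -1.43 for Steap4 on NCD.

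For SSD against NCD in WT mice, 1 was higher (Lcn2) and 1 lower (Traf3ip2), where 17.3% of all 13091 genes tested were higher and 17.6% lower, and 2 of the 9 genes did not overlap (29.0% of all genes). For diet in Klrk1-/- mice, 1 was higher (Il17rb) and 1 lower (Traf3ip2), against 13.4% and 16% of 12904 genes, and 4 of 9 did not overlap (37.6%). With every mouse scaled to 1 total, 6 were higher and 1 lower for diet in WT mice and 5 higher and none lower in Klrk1-/- mice, where 6315 of 13091 and 4828 of 12904 genes were higher and 720 and 806 lower.

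Between genotypes on SSD, none was higher (1.22% of 13116 genes) and 1 was lower (Lcn2, against 1.68%), and 4 of 9 did not overlap, namely Il17ra, Il17rc, Lcn2 and Steap4 (17.9%). On NCD, none was higher (6.41% of 12845 genes) and 2 were lower (Steap4 and Traf3ip2, against 6.66%), and these 2 did not overlap (19.3%). In the test of the diet by genotype interaction none passed, against 0.321% of 13068 genes in the higher and 0.559% in the lower direction. There, 3 genes (Lcn2, Nfkbiz and Traf3ip2) had an unadjusted p under 0.05 in limma, as did 17.3% of all genes, and edgeR and DESeq2 called none. The comparisons share mice, so they are not independent of one another. The median log2 fold change of the 8 genes was 0.29 for diet in WT mice, -0.14 and -0.16 for genotype on SSD and NCD and 0.22 for diet in Klrk1-/- mice, beside 0.00 for all genes in each. The shares over all genes depended on single mice. Between genotypes 221 genes were lower on SSD and 856 on NCD. With 1 mouse left out these ran from 30 to 425 and from 365 to 1123.

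**Figure D3:**
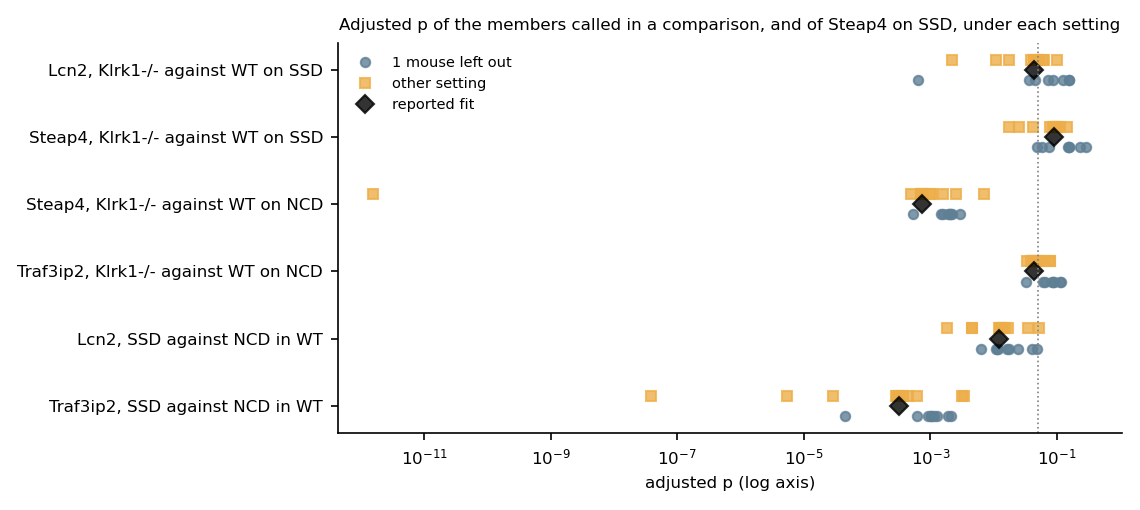
Adjusted p (log axis) of 6 pairs of gene and comparison under the reported fit (diamond), with 1 mouse left out (circles) and under other settings (squares); the dotted line marks 0.05. Steap4 on NCD and Traf3ip2 for diet in WT mice stay below the line throughout, and Lcn2 between genotypes on SSD lies on both sides of it.

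Levels were compared between genes per kilobase of the length given in the table. Steap4 was highest in WT mice on NCD, at 668 ± 186 normalized counts per kilobase (SD, n = 4), followed by Il17rc at 489 ± 54.7, and their ranges overlapped. Lcn2 came next at 187 ± 133 and overlapped with Traf3ip2 at 146 ± 16.2. Il17rb, Il17ra, Nfkbiz and Zc3h12a followed at 104, 88.5, 61.6 and 48.2, each overlapping the next, and Il17re was last at 3.51.

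In WT mice on SSD Lcn2 came first, at 1258 ± 1514 normalized counts per kilobase, and overlapped with Steap4 at 582 ± 322. Without WT SSD mouse 1 these were 586 ± 216 and 451 ± 152 (SD, n = 4), with Il17rc between them at 525 ± 14.5. In Klrk1-/- mice Il17rc came first on both diets, at 463 and 564, above Steap4 at 242 and 223 without overlap. This order depended on the length. With all annotated exons merged, Il17rc is 4537 rather than 1064 bases long, and Steap4 came first in all 4 groups. Under that length Steap4 overlapped with Lcn2 in WT mice on SSD and with Il17rc in Klrk1-/- mice on SSD.

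**Figure D4:**
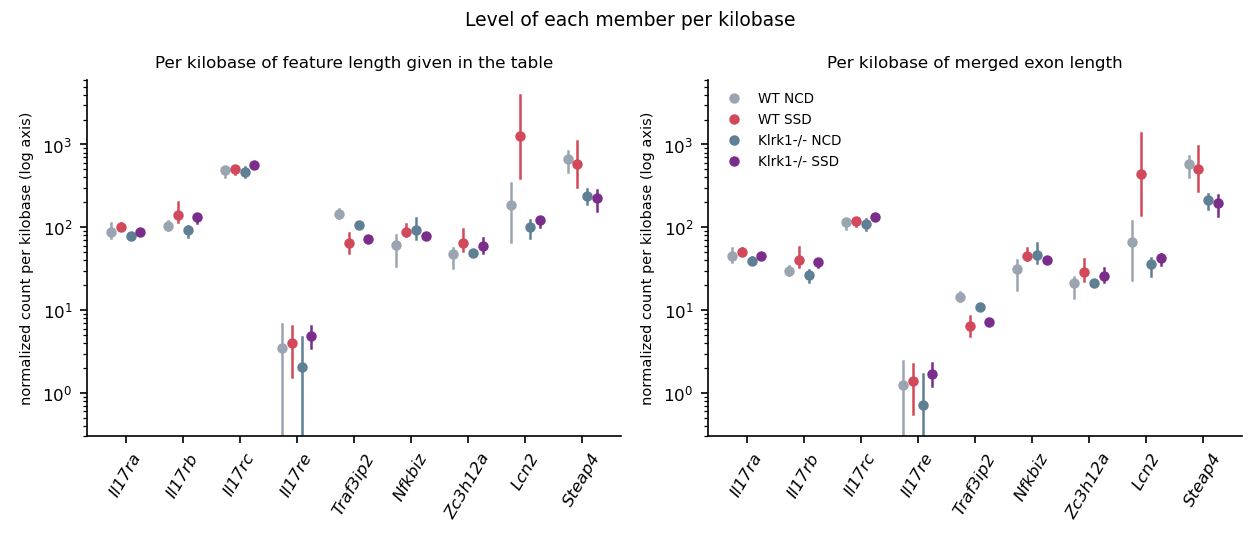
Level of each gene in normalized counts per kilobase (log axis) in the 4 groups, with the length of the table at left and merged exons at right; points are means, lines run from the lowest to the highest mouse, and a line reaching the bottom marks a mouse at 0. Il17re is lowest in every group under both lengths, and Steap4 has the highest mean in all groups under merged exons.

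The genes most like each member were named by Pearson's r of log2 levels over the 16 mice, among 13067 genes. The mice share diet and genotype groups, so these values describe the data and are not tests. For Lcn2 they were Anxa5 (0.941), Cntnap1 (0.939) and Myo1f (0.937), and with group means removed Anxa5 had 0.820. For Steap4 they were Sptlc2 (0.932), Rcan1 (0.931) and Septin11 (0.897). For Traf3ip2 they were Cyp2c70 (0.951), Tff3 (0.944) and Pstpip2 (0.944), and Cyp2c70 had 0.644 with group means removed.

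Among the receptors, Il17ra was most like Sh3bp4 (0.897), Cpne8 (0.892) and Sdk2 (0.857), Il17rb most like Kctd3 (0.949), Slc16a5 (0.918) and Vasp (0.900), and Il17rc most like Phf2 (0.908), Gfod2 (0.856) and Zmiz2 (0.856). Nfkbiz was most like Cep70 (0.913), Notch4 (0.869) and Ptprs (0.858), and Zc3h12a most like Glipr2 (0.891), Tspan3 (0.887) and Tnfrsf21 (0.885). Among the 8 tested genes the closest pair over all mice was Il17ra and Lcn2, at 0.824 and, with group means removed, 0.709. With group means removed Nfkbiz and Zc3h12a stood at 0.712. Lcn2 and Steap4 stood at 0.591 and 0.660.

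The rest of the pathway was described by lists. These lists were chosen with earlier results of these data known, so their counts beside the shares over all genes are not independent evidence. Between genotypes on SSD, 5 of the 11 tested transcription factors that act below the receptor were lower in Klrk1-/- mice and 6 did not pass, with a median log2 fold change of -0.64 beside 0.00 for all genes, of which 1.68% were lower and 1.22% higher. They included Fos (-1.62, adjusted p = 0.0197), the NF-κB subunit gene Relb (-1.26, adjusted p = 0.0306), the C/EBP family gene Cebpd (-1.19, adjusted p = 0.0347) and Jun (-1.02, adjusted p = 0.0474). Without WT SSD mouse 1, 6 of the 11 were lower, while the genes called lower over the whole table went from 221 to 425. Those genes numbered 30, 59 and 38 without Klrk1-/- SSD mouse 1, 2 or 3, and 97 and 90 without WT SSD mouse 2 or 3. How many of the 11 transcription factors were lower without these other mice is not given here. The monocyte and macrophage markers given beside Lcn2 differed in the same direction, and their part in this list was not tested.

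Of 8 IκB and feedback genes, 1 was lower between genotypes on SSD, the deubiquitinase gene Tnfaip3 (-1.87, adjusted p = 0.0392). Of 24 adaptor and kinase genes, 1 was lower, the chaperone gene Hsp90aa1 (-0.85, adjusted p = 0.00497). None of 5 other non-chemokine targets passed in limma (3 at an unadjusted p under 0.05, against 22.9% of all genes), at a median of -0.84, and 17 further genes of that list were below the minimum mean. Of 4 chemokine targets, 1 was lower, Cxcl10 (-1.25), at a list median of -1.72, and all 4 had an unadjusted p under 0.05, against the same 22.9%. Without WT SSD mouse 1, 3 were tested and all 3 were lower, and counts of this list with any other mouse left out are not given here. The study plotted genes of this list, and Mmp13, for these mice, so their direction is not independent evidence.

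On NCD, where 6.66% of all genes were lower in Klrk1-/- mice, Hsp90aa1 and Cebpd passed as they did on SSD. That share stands for 856 genes, which became 365 without Klrk1-/- NCD mouse 3 and 1123 without WT NCD mouse 5. Of the adaptor and kinase genes, 5 of 24 were lower, among them Hsp90aa1 (-1.31), Hsp90ab1 (-0.83), the deubiquitinase gene Usp25 (-0.55) and Traf3 (-0.47). Of the transcription factors, 2 of 11 were lower, Cebpd (-0.90) and Stat3 (-0.40). Of the IκB and feedback genes, 1 of 8 was lower, Bcl3 (-1.13).

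For diet in WT mice 17.3% of all genes were higher and 17.6% lower, and the shares of these small lists are to be read against that. Diet raised 4 of 11 transcription factors, among them Relb (1.54), Fos (1.36) and Jun (0.98), and lowered Stat3 (-0.54). It raised 2 of 8 IκB and feedback genes, Tnfaip3 (1.68) and Nfkbia (0.56), and lowered Nfkbib (-0.42). Of 24 adaptor and kinase genes, 2 were higher and 4 lower, among them Traf5 (-0.58), Tab1 (-0.52), Ikbke (-0.52) and Mapk3 (0.47). Of the other non-chemokine targets, 2 of 5 were higher, the protease inhibitor gene Timp1 (2.86, adjusted p = 0.00414) and the collagenase gene Mmp13 (2.0, adjusted p = 0.00721). Of 7 stellate cell markers 4 were higher with diet in WT mice (sums 4561 to 5879 on NCD and 5558 to 17427 on SSD, the highest in WT SSD mouse 1). So were 6 of 8 monocyte and macrophage, 4 of 6 Kupffer cell and 5 of 6 endothelial markers. Without WT SSD mouse 1 these 4 counts were 3, 5, 2 and 5. The part of these cells in the list counts was not tested. Of the transcription factors, 3 of 11 were higher on SSD in Klrk1-/- mice, Jun (0.75), Relb (0.74) and Rela (0.27), against 13.4% of all genes. No gene of any pathway list passed the interaction test in limma. An unadjusted p under 0.05 was met there by 17.3% of all genes, by 3 of 24 adaptor and kinase genes, 2 of 11 transcription factors, 4 of 8 IκB and feedback genes, 2 of 5 other non-chemokine targets, 2 of 4 chemokine targets and 8 of 19 acute-phase genes, and by 0 of 13 regulators of mRNA stability, 0 of 3 STEAP and lipocalin receptor genes and 0 of 1 further IL-17 receptor gene. Of the 8 monocyte and macrophage markers, 1 passed it.

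**Figure D5:**
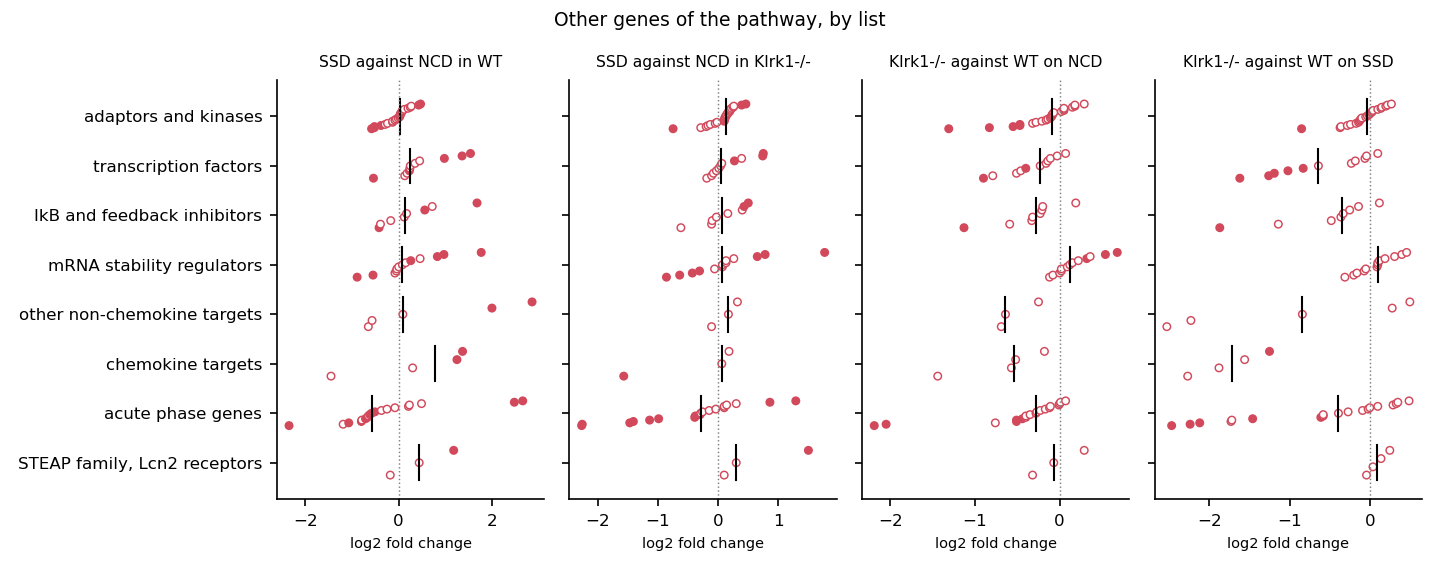
Log2 fold change of every tested gene of each pathway list in each comparison; dots are genes, filled dots have an adjusted p under 0.05, and bars are list medians. Between genotypes on SSD the transcription factor list has a median of -0.64, while the adaptor list has one of -0.04.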

How the data were processed

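The authors sequenced whole-liver RNA with single reads of 100 bases. Read quality was checked with FastQC. STAR was used for alignment to GRCm39, and FeatureCounts for counting on GENCODE M26. The study's methods name a total RNA kit and the labels an mRNA kit. The deposited signal is a normalized count per gene, the reads divided by 1 factor per mouse. DESeq2 is named in the submitters' processing notes, but how the factors were made is not given in the sources used here. Dividing by the value of 1 read gave whole reads (within 0.01) for 100% of values. The deposited table also gives another value, the length of each gene. Columns of the authors' own comparisons were not used.

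Log2(normalized count + 1) was tested with limma 3.58.1 (trend, R 4.3.3) for genes whose mean in the mice compared was 10 or more, with Benjamini-Hochberg adjustment over all of them and a threshold of 0.05. Folds on this scale understate changes of low genes. Members were tested too by exact permutation (two-sided), which for diet in Klrk1-/- mice cannot go below 0.0571. Alternatives were other pseudocounts and minimum means, equal totals, quantile normalization, robust variances, a model of all 4 groups, a block on replicate number, edgeR 4.0.16 and DESeq2 1.42.0 on recovered reads, fold limits of 1.5 and 2, and each mouse left out. Merged exon lengths and list counts without WT SSD mouse 1 were added after seeing the data. Tests were tried on simulated data.

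Samples were grouped by their labels, which name separate mice. No 2 mice of a group looked like 1 library deposited again (chi-square of their reads 14.2 to 100.8 per gene over 25 pairs, where sampling noise gives 1). The members and lists were chosen with earlier results of these data known. Named were the members, Klrk1, up to 4 listed genes past the test by size of change, and the 3 genes most like each member. Exon overlaps came from GENCODE M39.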

Additional observations from a re-analysis of the deposited data

Results flagged for a closer look

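Of 27 groups of 4 or 5 mice tested over the 9 genes, 1 held a mouse far from the others on the log2 scale. Il17rc in WT NCD mouse 1, at 434 normalized counts against 539 to 558 in the other 3, lay at a gap of 0.860 of the whole range of its group. Chance sets apart about 1 in 20 such groups.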

How the results depend on the processing

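The number of the 8 tested genes past the test was 2 for diet in WT mice, and became 7 with equal totals (6 higher), 1 with robust variances, 3 with DESeq2 and 4 with all 4 groups in 1 model. For genotype on SSD it was 1, and became 0 with a pseudocount of 10, quantile normalization, robust variances and edgeR, and 2 with DESeq2, the replicate block and all 4 groups. For genotype on NCD it was 2, and became 1 with a fold limit of 1.5 or 2, no minimum mean, equal totals and all 4 groups. For diet in Klrk1-/- mice it was 2, and became 0 with either fold limit and 5 with equal totals. For the interaction it was 0, and became 1 with quantile normalization (Traf3ip2, 0.83, adjusted p = 0.0387). With 1 mouse left out the counts ran from 2 to 4, 0 to 2, 1 to 2, 1 to 3 and 0 to 0 in this order. The causes were not tested.

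Of 816 single-gene alternatives, 752 kept direction and side of the threshold, 24 lost and 22 gained a call, and 18 reversed, none of which had passed the test. For diet in WT mice these were Steap4 with equal totals (0.03) and Il17rc without WT NCD mouse 1 (-0.02). For genotype on SSD they were Il17rb without WT SSD mouse 1 (0.09) or Klrk1-/- SSD mouse 1 (0.04; range with 1 mouse left out -0.12 to 0.09) and Zc3h12a without WT SSD mouse 1 (0.03) or Klrk1-/- SSD mouse 3 (0.01; -0.27 to 0.03). For genotype on NCD it was Zc3h12a without WT NCD mouse 2 (-0.13; -0.13 to 0.14). For diet in Klrk1-/- mice they were, with equal totals, Nfkbiz (0.06) and Steap4 (0.11), and Steap4 without Klrk1-/- SSD mouse 2 (0.09; -0.33 to 0.09). For the interaction they were Il17ra without WT NCD mouse 1 (0.06) or 2 (0.01), WT SSD mouse 1 (0.03) or Klrk1-/- NCD mouse 1 (0.04), Zc3h12a without WT NCD mouse 2 (0.02; -0.32 to 0.02), and Steap4 with the replicate block (-0.02), without WT SSD mouse 4 (-0.02) or Klrk1-/- SSD mouse 3 (-0.01; -0.02 to 0.44).

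Deviations of same-numbered mice from their group means had r from -0.15 to 0.24. For genotype on SSD, mice numbered 1 (0.15) and 3 (0.24) were more alike than either Klrk1-/- mouse was to any other WT mouse. For diet in Klrk1-/- mice this held for numbers 1 (0.15) and 2 (0.10), and for no other same-numbered pair of any comparison. These values cannot decide whether the numbers pair mice, because r was low throughout and its signs were mixed. With the replicate block the calls over all genes went from 4568 to 2954, 381 to 712, 1679 to 2369, 3790 to 3223 and 115 to 42 in the same order, and Steap4 passed for genotype on SSD (-1.73, adjusted p = 0.0176). On NCD Traf3ip2 then had an adjusted p of 0.0774 and Nfkbiz one of 0.0158. Over all genes, DESeq2 called 1221 and the model of all 4 groups 957 for genotype on SSD, and DESeq2 called 460 in the interaction. The calls with 1 mouse left out ran from 3614 to 4460 and 2397 to 3662 for diet in WT and Klrk1-/- mice. They ran from 45 to 717 and 717 to 2189 for genotype on SSD and NCD, and from 37 to 187 in the interaction. For genotype on SSD they were 45, 87 and 62 without Klrk1-/- SSD mouse 1, 2 or 3. Equal totals gave 7035 calls for diet in WT mice and moved the share of calls that were higher from 49.6% to 89.8% there, 45.5% to 85.7% for diet in Klrk1-/- mice, 42.0% to 19.0% for genotype on SSD and 36.5% to 19.4% in the interaction. Il17re and the ligands are limited by depth.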

Other observations

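Regulators of mRNA stability, some of which prolong and some of which shorten the life of transcripts, were described as a list of 13 tested genes. Diet in WT mice raised 4 and lowered 2, against 17.3% and 17.6% of all genes, among them Igf2bp2 (log2 fold change 1.77), Arid5a (0.97), Zfp36l2 (0.83) and Zc3h12d (-0.89). In Klrk1-/- mice 3 were higher and 4 lower (13.4% and 16% of all genes), among them Igf2bp2 (1.77), Arid5a (0.78), Zfp36l2 (0.65) and Zfp36 (-0.86). Between genotypes, 3 were higher in Klrk1-/- mice on NCD, against 6.41% of all genes (Malt1, 0.68, Zfp36l1, 0.54, and Srsf1, 0.32), and none passed the limma test on SSD (1 at an unadjusted p under 0.05, against 22.9% of all genes).

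Acute-phase genes, many of which hepatocytes switch on through IL-6 and STAT3, were mostly lower where they passed. Of 19 tested, 5 were lower and none higher in Klrk1-/- mice on SSD, where 1.68% of all genes were lower. Among the 5 were Saa2 (-2.47), Orm2 (-2.24), Saa1 (-2.12) and Saa3 (-1.46). The list had 6 lower genes without WT SSD mouse 1, where the lower calls over all genes went from 221 to 425. Those calls numbered 30, 59 and 38 without Klrk1-/- SSD mouse 1, 2 or 3. They numbered 97, 90, 133 and 345 without WT SSD mouse 2, 3, 4 or 5. Counts of this list without these other mice are not given here. The monocyte and macrophage markers summed to 2260 to 8602 in WT and 1444 to 1601 in Klrk1-/- mice on SSD. The Kupffer cell markers summed to 5096 to 11058 and 3789 to 4900 there. The part of these cells in the lower acute-phase genes on SSD was not tested. On NCD 5 were lower, against 6.66% of all genes, among them Saa2 (-2.19), Saa1 (-2.05), Fga (-0.51) and Itih4 (-0.51). Diet in WT mice lowered 8 of the 19, including Orm1 (-2.35) and Saa1 (-1.07), and raised Il1rn (2.66) and Saa3 (2.48), against 17.6% and 17.3% of all genes. Of 7 hepatocyte markers 3 were lower there too (median -0.46), and their part in these falls was not tested. Steap2, a relative of Steap4, rose on SSD in WT mice (1.18, adjusted p = 6.58e-05) and in Klrk1-/- mice (1.5).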
